A study of Mus musculus with 6 samples.

Results

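Transcripts that were assembled between annotated genes and that carry no gene name were described in 6 mouse pituitary libraries. A transcript was taken when the assembler had given it its own identifier and no gene name, when it was 500 nt or longer, and when its autosomal locus overlapped no locus with a gene name in any library. The members were thus chosen by their assembled length and position, so neither is a finding. These rules kept 5594 of 3244123 unnamed autosomal transcripts, out of 4100615 transcripts listed in all. Another 491914 unnamed intergenic transcripts were shorter than 500 nt, and 210461 unnamed transcripts of 500 nt or more overlapped a named locus. Merging overlapping loci across libraries gave 3292 loci on the 19 autosomes, of which 2417 lay on the 14 chromosomes (1 to 4 and 10 to 19) that every library covered.

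Each group was 1 library, so no difference below has a replicate check. Adult glands were taken at 7 weeks of age and young glands at postnatal day 7 (P7). The adult Tshbcre, Ghcre and Lhbcre libraries came from 42, 12 and 7 pooled glands of mice that carried the named Cre driver together with the ROSAYFP reporter. The P7 Tshbcre library came from 5 pooled glands. These 4 libraries hold the cells that sorted as GFP positive after collagenase dispersal. The adult whole gland library came from 1 nontransgenic gland and the P7 whole gland library from 8 nontransgenic glands. The reporter marks every cell with a history of Cre activity, so a sorted fraction follows the driver's lineage and not the hormone a cell makes at harvest. RNA input was 250 ng with ribosomal RNA depletion.

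Intergenic transcripts of this kind have several known sources. RNA polymerase II continues past the poly(A) site of a gene, and this downstream RNA is usually degraded quickly. Primary transcripts of microRNAs and long non-coding RNAs can be longer than their annotation, and active enhancers are transcribed as well. Ribosomal RNA depletion keeps RNA without a poly(A) tail, so all of these can enter such a library. The files alone do not say which source a transcript has.

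Several miRNA genes were the nearest named gene of these loci, and their mature sequences show which regulators lie beside the unnamed transcripts. They are given from RefSeq (GRCm38.p6), 5′ to 3′, with the seed (bases 2 to 8) in capitals. let-7c and let-7i share a seed.
mmu-let-7c-5p: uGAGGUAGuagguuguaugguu
mmu-let-7i-5p: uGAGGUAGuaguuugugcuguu
mmu-miR-125b-5p: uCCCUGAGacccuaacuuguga
mmu-miR-99a-5p: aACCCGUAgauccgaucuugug
mmu-miR-7b-5p: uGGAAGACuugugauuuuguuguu
mmu-miR-29b-3p: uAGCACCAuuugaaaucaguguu

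The libraries differed in how far fragments were joined into long transcripts. The adult Tshbcre library held 1598 of the transcripts, with 1627 from the adult gland and 1383 from the P7 gland. The adult Ghcre library held 674, the P7 Tshbcre library 255 and the adult Lhbcre library 57. In these 3, 36.3%, 44.3% and 71.2% of all unnamed transcripts, autosomal or not, had 1 short length (51 or 52 nt), against 0.708% to 2.96% in the other 3. The Ghcre table ended at position 44957466 of chromosome 5, so that library says nothing of chromosomes 6 to 9. Implied depth ran from 52.6 M fragments in the adult whole gland to 141 M in the Ghcre library. Tshb, the thyrotrope hormone subunit, stood at 1075 and 3001 scaled FPKM in the adult and P7 Tshbcre libraries, against 33.1 and 61.0 in the unsorted glands of the same ages. Lhb, the gonadotrope subunit, reached 2198 scaled FPKM in Lhbcre cells, 2904 in adult Tshbcre cells and 637 in the adult whole gland. The summed gonadotrope list, Lhb included, reached 10454 and 11361 scaled FPKM in the adult and P7 Tshbcre libraries, against 1636 and 1167 in the whole glands, and its part in the results below was not tested. The corticotrope and melanotrope list summed to 31.1 to 345 in the sorted libraries and 1456 to 1589 in the whole glands. The somatotrope hormone gene Gh stood at 14806 scaled FPKM in adult Tshbcre, 3870 in P7 Tshbcre and 6031 in the P7 whole gland. The lactotrope hormone gene Prl stood at 6546 in adult Tshbcre, 17579 in the adult whole gland, 21.7 in P7 Tshbcre and 82.5 in the P7 whole gland. In the adult Tshbcre library both were above Tshb, and their part in the results was not tested. No value of Gh was used in the Ghcre library, the Lhbcre library or the adult whole gland, and none of Prl in Ghcre or Lhbcre. The Ghcre label was thus not checked on Gh. The Gh value of adult Tshbcre has no adult value to stand against.

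**Figure D1:**
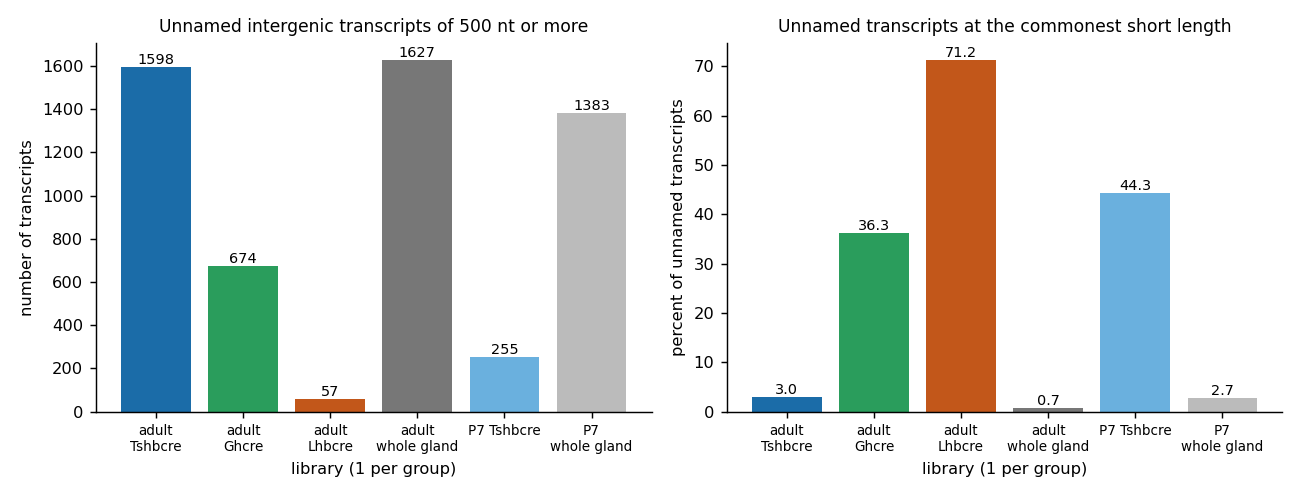
Number of unnamed intergenic transcripts of 500 nt or more (left, bars) and percent of all unnamed transcripts at the commonest short length (right, bars) in each of the 6 libraries. The libraries with 674, 57 and 255 long transcripts are those with 36.3%, 71.2% and 44.3% of their unnamed transcripts at the short length.

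Most of the transcripts were short, single-exon and weakly covered. Median length was 651.5 nt in the adult Tshbcre library, 636 nt in Ghcre, 646 nt in Lhbcre, 662 nt in the adult whole gland, 690 nt in P7 Tshbcre and 644 nt in the P7 whole gland. The longest, 7970 nt, came from the adult whole gland and lay beside Blcap. Median FPKM was 2.36, 2.66, 16.4, 1.97, 8.10 and 2.07 in the same order. The 2 highest medians belong to the libraries with the fewest long transcripts. An intron was present in 74 of the 5594 (1.32%). Near the length limit, the 245 transcripts of 500 to 510 nt had a median FPKM of 2.33, and the 278 intergenic transcripts from 490 nt up to the limit one of 2.23.

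Loci with a long transcript were mostly seen in 1 library, while the same places almost always held shorter unnamed transcripts in others. Of the 2417 loci on the 14 chromosomes, 1644 had a transcript of 500 nt or more in 1 library, 448 in 2, 210 in 3, 84 in 4, 26 in 5 and 5 in 6. With an unnamed intergenic transcript of any length counted, 2341 (96.9%) had one in at least 2 libraries and 948 in all 6. The adult Tshbcre library and the adult whole gland shared 364 loci, 35.7% of the first and 35.1% of the second. The adult and P7 whole glands shared 339, 32.7% and 39.2%. The number of libraries in which a locus was found therefore depends on assembled length.

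**Figure D2:**
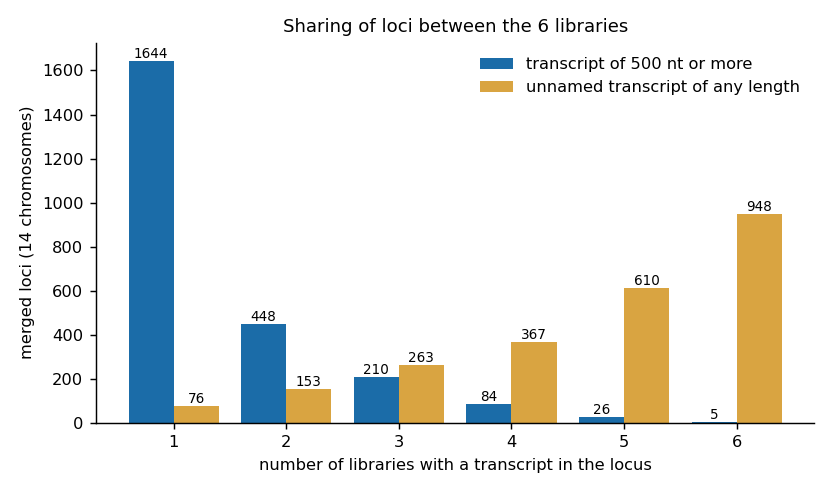
Merged loci on the 14 chromosomes (vertical axis) by the number of libraries that held a transcript in them (horizontal axis), for transcripts of 500 nt or more (blue) and for unnamed intergenic transcripts of any length (yellow). The blue bars fall from 1644 to 5 and the yellow bars rise from 76 to 948.

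The loci lay close to named genes and more often after the end of a gene than before its start. The median distance to the nearest named gene was 1670.5 nt, with 1287 loci within 1 kb and 1102 between 1 and 5 kb. Of 3086 loci whose nearest gene had a known strand, 2027 (65.7%) lay after its end. That share was 65.7% within 1 kb, 71.7% at 1 to 5 kb, 59.8% at 5 to 20 kb and 53.8% at 20 to 100 kb. With 1 locus taken from each gap between genes it was 66.1%. No such share was taken over shorter intergenic transcripts or the intergenic space, so it describes these loci only. The nearest gene reached 1 scaled FPKM for 67.7% to 77.3% of the loci of a library, against 28.1% to 29.0% of all named genes. The nearest gene was protein coding for 68.2% of the loci, and the named genes were not split by kind for this comparison. For 569 loci (17.3%), an unnamed transcript of some library joined the locus to a named gene, and such joined transcripts are not in the levels below. In the order of genes on GRCm38, 504 of 2131 loci that could be placed (23.7%) lay in a gap that holds a GENCODE gene the deposited tables do not name.

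**Figure D3:**
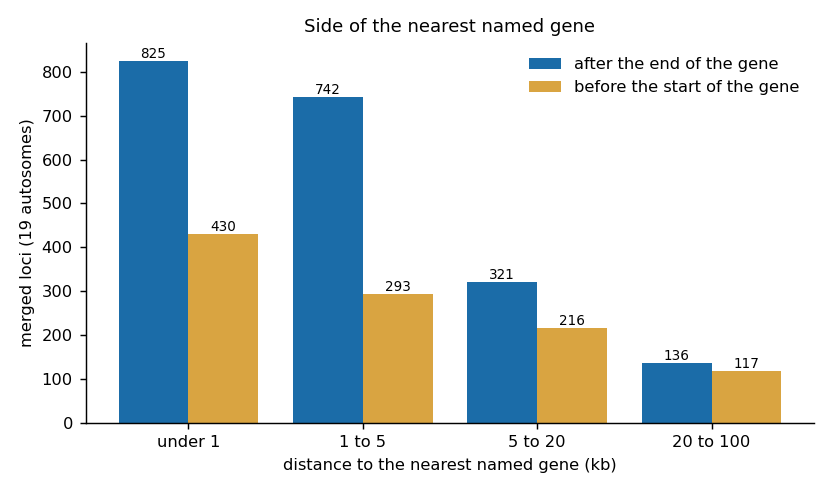
Merged loci (vertical axis) by distance to the nearest named gene in kb (horizontal axis), split into loci after the end of that gene (blue) and before its start (yellow). The excess after the end is 742 of 1035 loci at 1 to 5 kb and 136 of 253 at 20 to 100 kb.

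On the 14 chromosomes, the 5 loci with a long transcript in every library lay after the ends of Gm25224, Mir7b, Blcap, Fitm2 and Erich3. Another such locus, chr5:34330706-34333809, lay 114 nt past Mxd4 on the part of chromosome 5 that the Ghcre table reaches. Levels of loci and gaps are given as scaled FPM, summed over unnamed intergenic transcripts of any length. FPM is the number of fragments implied by the deposited FPKM bounds, divided by the implied depth of the library in M fragments. Scaling divided it by a factor for each library, the median of ratios over named genes. This level is not FPKM times length. The Fitm2 locus (mm39 chr2:163308189-163310323) began 299 nt past a gene for a lipid droplet protein. It stood at 6.42 in the adult Tshbcre library, 8.18 in Ghcre, 9.08 in Lhbcre, 6.08 in the adult whole gland, 7.24 in P7 Tshbcre and 4.95 in the P7 whole gland. Lhbcre was highest and the P7 whole gland lowest. The Mir7b locus (chr17:56550716-56555299) lay 617 nt past the gene of miR-7b, whose sequence is printed above. It stood at 13.4, 35.6, 17.4, 8.71, 10.3 and 7.04 in the same order of libraries, highest in Ghcre. The Blcap locus (chr2:157385624-157397716) spanned 12093 nt and stood at 23.3, 64.8, 60.5, 31.8, 62.0 and 22.6. The Gm25224 locus (chr12:109656317-109668224), inside the imprinted Dlk1-Meg3 region, stood at 31.7, 82.4, 51.6, 14.9, 65.6 and 7.63. In these 3 loci, of Mir7b, Blcap and Gm25224, the highest value was that of the Ghcre library. The Erich3 locus (chr3:154462076-154473435) stood at 17.7, 17.0, 47.8, 13.8, 17.1 and 8.43, highest in Lhbcre. The Gm25224 and Erich3 loci were among those joined to a named gene, so their levels leave out the joined transcripts. The Mxd4 locus stood at 37.5, 52.5, 54.8, 65.4, 34.4 and 41.7, highest in the adult whole gland.

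Long transcripts gathered in a small number of gaps between neighbouring named genes. Of 33481 gaps, 1661 held a locus, 1027 held 1, and 98 held 5 or more, with 938 loci (28.5%) in these. The 21 gaps with 13 or more loci were chosen after their values were seen, and they are described here with no test. Levels of a gap are sums, so the length covered by transcripts is given beside them.

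**Figure D4:**
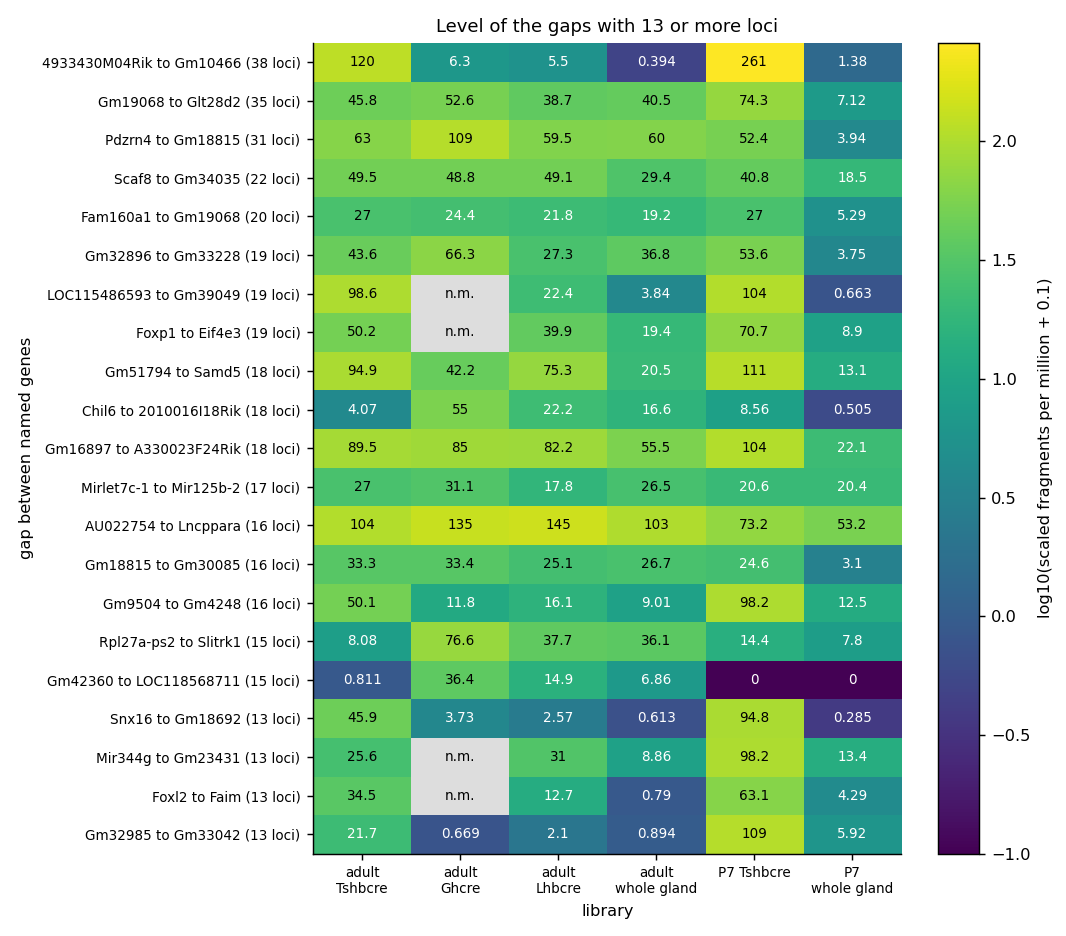
Level of the 21 gaps with 13 or more loci (rows) in the 6 libraries (columns), as scaled FPM printed in each cell and coloured on a log10 scale after adding 0.1. Grey cells (n.m.) were not measured, because the Ghcre table stops on chromosome 5. The gap from 4933430M04Rik to Gm10466 reads 120 and 261 in the Tshbcre libraries and 0.394 and 1.38 in the whole glands.

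The gap with most loci, 38, ran from 4933430M04Rik to Gm10466 on chromosome 11, and its long transcripts were all from the Tshbcre libraries. It stood at 119.7 scaled FPM in adult Tshbcre, 6.30 in Ghcre, 5.50 in Lhbcre, 0.394 in the adult whole gland, 260.6 in P7 Tshbcre and 1.38 in the P7 whole gland. Transcripts covered 65.3 kb of the gap in adult Tshbcre and 51.4 kb in P7 Tshbcre, and 0.40 to 4.05 kb in the other libraries. With 0.1 added to each level, the adult Tshbcre level was 242-fold that of the adult whole gland, and the P7 level 176-fold that of the P7 whole gland. The values in Ghcre and Lhbcre rest on short transcripts: with only those of 200 nt or more, neither was above the adult whole gland. The lncRNA gene 4933430M04Rik itself stood at 3.55 and 2.19 scaled FPKM in the adult and P7 Tshbcre libraries and at 0.10 and 0.16 in the whole glands.

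The same 2 libraries were highest in other gaps. Between Snx16, a sorting nexin gene, and Gm18692 on chromosome 3, 13 loci stood at 45.9 in adult Tshbcre, 3.73 in Ghcre, 2.57 in Lhbcre, 0.613 in the adult whole gland, 94.8 in P7 Tshbcre and 0.285 in the P7 whole gland. Between LOC115486593 and Gm39049 on chromosome 7, 19 loci stood at 98.6 in adult Tshbcre, 22.4 in Lhbcre, 3.84 in the adult whole gland, 103.9 in P7 Tshbcre and 0.663 in the P7 whole gland. The 2 Tshbcre libraries are close there, although transcripts covered 104.7 kb in the adult and 23.5 kb at P7. The gap from Gm32985 to Gm33042 on chromosome 1 stood at 21.7 in adult Tshbcre and 108.9 in P7 Tshbcre, against 0.894 and 5.92 in the whole glands. In a bulk sample, fewer cells of a type and less RNA per cell cannot be told apart, so these levels do not say how many cells make the RNA.

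Other gaps were highest in the Ghcre library. Between Chil6 and 2010016I18Rik on chromosome 3, 18 loci stood at 4.07 in adult Tshbcre, 55.0 in Ghcre, 22.2 in Lhbcre, 16.6 in the adult whole gland, 8.56 in P7 Tshbcre and 0.505 in the P7 whole gland. The gap from Rpl27a-ps2 to Slitrk1, a neuronal membrane protein gene, stood at 76.6 in Ghcre, 36.1 in the adult whole gland and 8.08 in adult Tshbcre. The gap from Gm42360 to LOC118568711 stood at 36.4 in Ghcre, 14.9 in Lhbcre, 6.86 in the adult whole gland and 0.811 in adult Tshbcre. No unnamed intergenic transcript was assembled there in either P7 library. All 3 gaps were lower in adult Tshbcre than in the adult whole gland, the reverse of the 4933430M04Rik gap. On the level first planned, FPKM times length, the Chil6 gap turned and was higher in adult Tshbcre (log2 1.83).

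Further gaps were similar across the adult libraries. The gap from Pdzrn4, a ubiquitin ligase gene, to Gm18815 stood at 109 in Ghcre, 59.5 in Lhbcre and 63.0 in adult Tshbcre, with the adult whole gland between the last 2. It stood at 52.4 in P7 Tshbcre and 3.94 in the P7 whole gland, which was the lowest of the 6 libraries. With FPKM times length, the P7 whole gland was instead above the adult one (log2 2.27). The gap from AU022754 to Lncppara on chromosome 15 stood between 53.2 (P7 whole gland) and 145 (Lhbcre). The gap from Mirlet7c-1 to Mir125b-2 on chromosome 16 stood between 17.8 (Lhbcre) and 31.1 (Ghcre), the narrowest range of these 3.

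miRNA genes were the nearest named gene of 80 loci, at 30 genes. Mir125b-2 had 16 loci, from 5 to 39504 nt away, and Mirlet7c-1 had 10, all after its end. Mir99a, of the same cluster, had 4, all before its start, and Mirlet7i had 3, all after its end. Mir29b-1 had 5 loci, all before its start, which summed to 35.4 in adult Tshbcre, 37.4 in Lhbcre, 28.9 in the adult whole gland, 21.7 in P7 Tshbcre and 9.69 in the P7 whole gland. The loci beside Mir125b-2 summed to between 7.46 (Lhbcre) and 10.8 (adult whole gland), with the libraries close together. The Mir7b gene was listed at 0 FPKM in all 6 libraries. Mature miRNA levels were not analysed here, and the sequences above are shown for the position of their genes.

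Some genes of the pituitary list had a locus beside them. The list holds hormones, their receptors, and transcription and secretory factors of the gland. Of its 64 autosomal genes, 26 (40.6%) were the nearest gene of at least 1 locus, against 1331 of 12525 coding genes at 1 scaled FPKM or more (10.6%). The listed genes were not filtered on level, and some, such as Fst, stayed below 1 scaled FPKM in every library. The list was chosen with earlier results known and was not matched to the coding genes on level or gap length. These shares are thus a description of unlike sets. These 26 genes had 80 loci, 55 after the end and 25 before the start, and the 5 genes with most loci held 42 of the 80. Among them, Six6 had 11, Foxl2 8, Isl1 8 and Egr1 5. The loci beside the hormone genes Gh, Prl, Cga and Tshb all lay after the end of the gene. So did those beside the granin genes Chga, Chgb and Scg2.

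Foxl2 is a forkhead factor of thyrotropes and gonadotropes. The gap from Foxl2 to Faim on chromosome 9 held 13 loci and stood at 34.5 in adult Tshbcre, 12.7 in Lhbcre, 0.790 in the adult whole gland, 63.1 in P7 Tshbcre and 4.29 in the P7 whole gland. Its strongest locus, chr9:98843417-98846718, lay 3237 nt past Foxl2 and stood at 9.91, 3.73, 0.28, 15.2 and 1.68 in the same libraries. The whole glands were lowest at both ages. Foxl2 itself stood at 22.1 scaled FPKM in adult Tshbcre and 6.24 in the P7 whole gland, and was listed at 0 in Lhbcre, the adult whole gland and P7 Tshbcre. At P7 the listed gene values and the gap thus go opposite ways. Gene values count named transcripts only and leave out unnamed ones that overlap the gene, so a listed 0 need not mean absent RNA. Mxd4, too, was listed at 0 in the adult whole gland, where the locus beside it stood at 65.4.

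**Figure D5:**
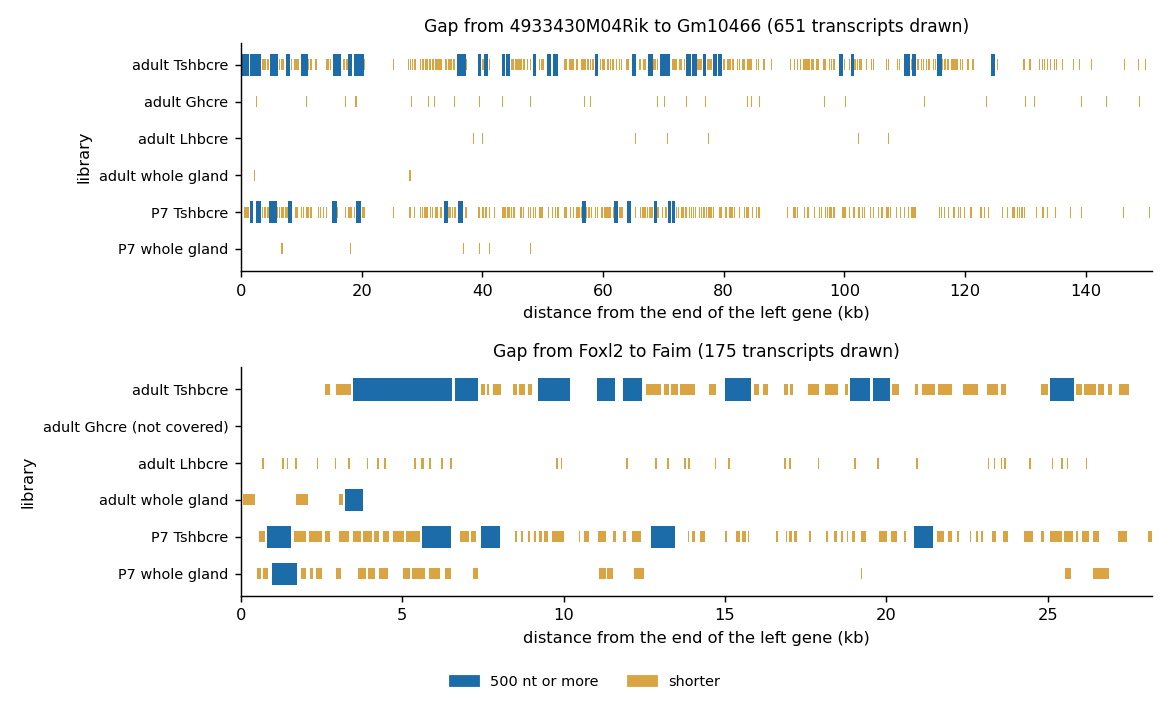
Unnamed intergenic transcripts in the gaps from 4933430M04Rik to Gm10466 (top) and from Foxl2 to Faim (bottom), by distance in kb from the end of the left gene, with 1 row per library. Blue bars are transcripts of 500 nt or more and yellow bars shorter ones. The Tshbcre rows hold transcripts along the length of both gaps, and the Lhbcre row holds short transcripts only.

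Isl1, a LIM homeodomain factor of the same lineages, had its 8 loci before its start, from 197 to 14117 nt away. That gap stood at 28.4 in adult Tshbcre, 1.30 in Ghcre, 9.98 in Lhbcre, 2.53 in the adult whole gland, 39.2 in P7 Tshbcre and 4.19 in the P7 whole gland. Isl1 itself stood at 10.5, 0.22, 3.88, 1.86, 13.4 and 7.02 scaled FPKM. Both are highest in the Tshbcre libraries and lowest in Ghcre. A locus past Egr1, the immediate early factor that activates Lhb, stood at 8.78 in P7 Tshbcre and between 1.55 and 2.01 in the adult libraries. The Egr1 locus was among those joined to a named gene, so its levels leave out the joined transcripts.

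Locus by locus, the libraries were compared on loci with an unnamed transcript in both, and a locus was called when the levels differed 4-fold. Before the ratio, 0.1 was added to each level, and the higher level had to reach 0.5. The level also takes in the transcripts that chose the loci, so these counts are a description. Adult Tshbcre against the adult whole gland called 58 loci higher (2.97%) and 25 lower (1.28%) of 1953 (4.25%), where 5.63% of named genes were called, 2.46% higher and 3.17% lower. Ghcre called 64 (4.41%) and 26 (1.79%) of 1450 (6.21%), with 11.4% of named genes, 5.30% higher and 6.11% lower. Lhbcre called 66 (3.73%) and 25 (1.41%) of 1768 (5.15%), with 9.35% of named genes, 5.14% higher and 4.21% lower. These 3 share the adult whole gland. In either direction together, the share of loci was below that of genes in each, but for adult Tshbcre the share called higher was above that of genes. Against the P7 whole gland, P7 Tshbcre called 242 loci higher (14.5%) and 8 lower (0.479%) of 1670 (15.0%), with 11.6% of named genes called, 4.91% higher and 6.65% lower. The P7 whole gland against the adult whole gland called 12 higher (0.768%) and 84 lower (5.38%) of 1562 (6.15%), with 4.87% of named genes, 2.58% higher and 2.29% lower. P7 Tshbcre against adult Tshbcre called 58 in each direction (2.72%) of 2130 (5.45%), with 6.65% of named genes, 2.84% higher and 3.81% lower. For P7 Tshbcre against the P7 whole gland, the median log2 difference was 0.812 over loci and 0.095 over named genes. For the P7 against the adult whole gland it was -0.506 over loci and -0.056 over genes. Both splits thus sit on an offset of the loci as a whole. In the other comparisons the median ran from 0.030 to 0.352 over loci and from 0.022 to 0.130 over genes. The shares and medians of genes rest on FPKM times length and those of loci on implied fragments, so the 2 are not on 1 scale.

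These counts move with the settings. With 1 added in place of 0.1, the 6 comparisons called 6, 9, 13, 37, 4 and 8 loci. When named genes were scaled to an equal sum, the Ghcre split became 520 higher and 6 lower, and the Lhbcre split 139 and 12.

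Single loci show the range. A locus 650 nt past Glra1, a glycine receptor gene, stood at 5.42 in adult Tshbcre, 0.20 in Ghcre, 5.26 in Lhbcre, 1.64 in the adult whole gland, 0.34 in P7 Tshbcre and 1.02 in the P7 whole gland. Glra1 itself stood at 5.11, 0.04, 4.81, 0.99, 0.64 and 0.57 scaled FPKM, in the same order of libraries but for the P7 pair. A locus 453 nt past Grem1, a BMP antagonist gene, stood at 12.7 in adult Tshbcre, 0.11 in Ghcre, 2.62 in the adult whole gland and 3.06 in P7 Tshbcre. Grem1 stood at 16.7, 0.03, 3.85 and 4.36 scaled FPKM in those libraries. Past the chaperone gene Hspa8, a locus stood at 0.23 in adult Tshbcre, 10.6 in Lhbcre, 2.77 in the adult whole gland and 6.96 in P7 Tshbcre. Hspa8 stood at 158.2, 289.3, 180.4 and 151.9 scaled FPKM there, a narrower range than its locus. A locus past Dnajb1, a co-chaperone gene, stood at 15.0 in Lhbcre, 0.19 in the adult whole gland, 8.44 in P7 Tshbcre and 2.36 in the P7 whole gland. Dnajb1 itself stood at 64.7, 26.2, 31.7 and 15.2 scaled FPKM there, also a narrower range. In some library a transcript joined the Dnajb1 locus to a named gene, and its levels leave that transcript out.

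Over loci within 5 kb of their nearest gene, the difference of the locus and that of the gene were weakly related. Spearman's rho was 0.15 over 1292 loci for adult Tshbcre against the whole gland and 0.20 over 1215 for P7 Tshbcre. It was 0.25 over 1125 for the 2 whole glands, and the lowest was 0.09 over 1411 for P7 Tshbcre against adult Tshbcre. At 20 kb or more from the gene, rho was 0.38 over 57 loci for adult Tshbcre against its whole gland. For P7 Tshbcre against its whole gland it was 0.48 over 41 such loci. In the other comparisons it ran from -0.19 to -0.07 at that distance. Locus and gene come from the same library and share its depth, and loci are not independent replicates.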

How the data were processed

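RNA from 6 pituitary libraries was sequenced after ribosomal RNA depletion. Per the submitters' processing notes, FastQC, Bowtie2 and Cufflinks were used with build mm39. Settings and versions are not given in the sources used here. Per library, the authors deposited 1 transcript table, with FPKM, its lower and upper bounds, and coverage (signal); per the file headers, these are assembled and named transcripts. Members and lists were chosen with earlier results of these data known.

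The level first set for loci was FPKM times length. It could not be used as the main level, because transcripts of 51 or 52 nt carried FPKM far above any other length. The level was replaced, after the files were seen, by the fragments implied by the deposited bounds (the square of 2 times FPKM over the distance to the upper bound), divided by the depth that coverage and FPKM imply. At the shortest length, FPKM was divided by the FPKM of 1 fragment, and at least 99.8% came within 0.02 of a whole number. That unit was taken from transcripts whose bounds already gave a whole number. The fragments implied by the bounds were a median of 0.959 (both whole glands) to 1.00 times that count. The lowest ratio was 0.603, in Ghcre and P7 Tshbcre, so the implied fragments are approximate. Libraries were scaled by the median of ratios over 5808 named genes. Named genes stayed on FPKM times length, so their called shares are on another level than those of loci. FPKM bounds do not cover variation between animals. Where the ratio fell below 1, they were wider than 2 square roots of the count. Loci were named by rank of library number, level, length and difference, and by the pituitary list; some loci are not reported here. With 1 library a group no test was made. Alternatives were length limits, distance, scaling, pseudocount, minimum level, fold and unit. Python 3.11.15, pandas 2.3.3, numpy 2.4.6 and scipy 1.17.1 were used, and scripts were tested on simulated data. Strand, names and gene order came from GRCm38 tables, with no coordinates printed from them.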

Additional observations from a re-analysis of the deposited data

Results flagged for a closer look

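A locus on chromosome 6 (mm39 chr6:48519183-48520238), 447 nt from Atp6v0e2, a proton pump subunit gene, moved in opposite directions in the Tshbcre libraries of the 2 ages. Its log2 difference from the whole gland was -2.65 in adults and 2.38 at P7, a gap of -5.03 between ages. It stood at 0.157 scaled FPM in adult Tshbcre and 1.52 in the adult whole gland, and at 2.79 in P7 Tshbcre and 0.455 in the P7 whole gland. The longest transcript in adult Tshbcre was 60 nt, against 1056 nt in the adult whole gland. With 1 library a group, the difference was not tested.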

How the results depend on the processing

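No paired analysis was possible because each group had 1 library and the labels carry no replicate numbers. Leaving out a library would leave its group empty. Of 97 alternatives to the main counts and values, 34 stayed within 1.5 times the main count or, for the distance and the intron share, within the 95% interval of the main value.

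With a limit of 200 nt there were 44665 transcripts, 5317 shared loci, a median transcript distance of 2530 nt (1820.5 nt at 500 nt), 0.349% with an intron and 301 loci beside listed genes. With 1000 nt there were 958 transcripts, 134 shared loci, 3.13% with an intron and 13 beside listed genes. At 5 kb or more from a gene these were 1526, 196, 2.36% and 27. Shared loci numbered 2341 with transcripts of any length and 2004 with those of 200 nt or more, against 773, and 736 with the adult Lhbcre and P7 Tshbcre libraries left out. Counting only genes at 1 FPKM, the median distance was 2663.5 nt.

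Called loci are given in the order adult Tshbcre, Ghcre and Lhbcre against the adult whole gland, P7 Tshbcre against the P7 whole gland, P7 against adult whole gland, and P7 against adult Tshbcre. A pseudocount of 1 gave 6, 9, 13, 37, 4 and 8. A pseudocount of 0.01 gave 169, 143 and 174 in the first 3 and 199 and 189 in the last 2. A minimum of 2 gave 41, 39, 51, 140, 38 and 60. Absent transcripts set to 0 gave 610, 354, 550, 753, 520 and 470. A 2-fold limit gave 590, 478, 638, 841, 569 and 691. FPKM times length, the level first set, gave 664, 1132, 1977, 1771, 455 and 1932. Transcripts of 500 nt or more in both libraries gave 6, 6, 1, 23, 4 and 5. Transcripts of 200 nt or more gave 56 and 21 for Ghcre and Lhbcre, 99 for P7 Tshbcre and 62 for the last. Equal sums gave 526 for Ghcre and 151 for Lhbcre. FPKM times length as an alternative, transcripts of 500 nt or more in both libraries, leaving out the 2 libraries, and the gap settings below were chosen after seeing the data.

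For the 10 gaps with most loci, 21 of 58 comparisons differed 4-fold. Of these, 20 stayed so on the deposited scale, 20 with equal sums, 16 with FPKM times length and 12 with transcripts of 200 nt or more. The direction turned with transcripts of 200 nt or more at 4933430M04Rik for Ghcre (log2 -0.086) and Lhbcre (-1.61), at LOC115486593 for Lhbcre (-4.59) and at Chil6 for P7 Tshbcre (-1.58). It turned with FPKM times length for the P7 against the adult whole gland at Pdzrn4 (2.27), Gm32896 (2.79) and LOC115486593 (3.71), and for adult Tshbcre at Chil6 (1.83). The cause was not tested, and gaps outside the 10 were not run under these settings.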
